A study of Mus musculus with 6 samples.

Results

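The genes described here are 10 genes of gp130 cytokine signalling: the cytokines Il6, Lif and Osm, the receptor chains Il6ra, Il6st, Lifr, Osmr and Cntfr, the transcription factor Stat3 and its feedback inhibitor Socs3. They were chosen by name, and all 10 were found, each on a single row, among the 32719 genes of the count files. RNA came from vagal jugular-nodose ganglia, where the sensory neurons of the vagus nerve have their cell bodies, of male C57BL/6J mice labelled WT. Per the treatment protocol the mice carried subcutaneous osmotic pumps for 2 weeks, filled with PBS or with S961 in PBS (10 nmol per week). S961 is a peptide that blocks the insulin receptor. The sample titles give 3 control and 3 treated libraries, whereas the treatment label reads S961 for all 6, so the controls are taken as PBS mice from their titles and the treatment protocol alone. Nothing states whether a library is 1 animal or a pool, so the p-values measure the spread between these samples, which may be technical.

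Cytokines of the interleukin-6 family act through receptor complexes that share gp130, the signal-transducing chain encoded by Il6st. A ligand joins gp130 to a partner chain (Lifr or Osmr) or, for interleukin-6 and ciliary neurotrophic factor, first binds a specific receptor (Il6ra or Cntfr). JAK kinases bound to these chains then phosphorylate STAT3, which enters the nucleus and induces genes that include Socs3, whose protein blocks the receptor complex. In sensory neurons this pathway is known from nerve injury, when Lif, Il6 and their relatives are made locally and STAT3 is activated in the cell body. Osmr is also known as the partner of Il31ra in the itch receptor of a class of somatosensory neurons.

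CPM below are read counts scaled to library size. The libraries held between 12898607 and 33522486 gene counts. Treated replicate 3 was the shallowest and stood apart, with correlations of 0.920 to 0.944 to the other 5 libraries across genes, against 0.968 to 0.989 among those 5 (genes are not independent replicates). The tissue label of all libraries reads spinal cord. Of the 8 genes listed as markers of spinal cord cells, Olig1, Olig2, Mnx1, Slc6a5 and Lbx1 each had 0 counts in at least 1 library and at most 12 in any, Tmem119 had 6 to 36 and Aqp4 134 to 412. The remaining one, Cnp, which myelinating Schwann cells also express, had 1438 to 5097 counts and made up most of the list's sum of 112.4 to 189.6 CPM. Prdm12, which marks jugular neurons, had 558 to 3351 counts. Summed levels of the 9 macrophage markers were 37.2 to 83.8 CPM in controls. In treated replicates 1, 2 and 3 they were 44.8, 86.3 and 299.6 CPM. All 9 markers were highest in treated replicate 3, as were 34.4% of all tested genes. The 8 fat cell markers summed to 2.15 to 29.2 CPM in controls and to 1.99, 48.6 and 444.8 CPM in the treated libraries. The 5 jugular markers summed to 174.6 to 218.7 CPM in controls and to 421.2, 255.1 and 520.2 CPM in the treated libraries, and the 6 nodose markers to 523.3 to 532.5 CPM and to 369.8, 406.0 and 173.6 CPM. In such bulk samples fewer cells of a type and less RNA per cell cannot be told apart.

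Transcripts of the receptor chains Lifr, Il6st and Cntfr were abundant in the ganglia, those of Osmr and Il6ra were low, and there were almost none of the 3 cytokines. Treated libraries had higher Osmr (1.61-fold), Stat3 (1.21-fold), Socs3 (2.33-fold) and Lifr (1.13-fold) levels than controls, without overlap between the groups. The same held for 7.07% of all tested genes, and no gene passed the edgeR test after adjustment over all genes. The Socs3 value rested largely on treated replicate 3: it was 1.39-fold without that library, and treated replicate 1 exceeded the highest control by little. With edgeR's quasi-likelihood test, 0 of 16019 genes (0% of the background) had a Benjamini-Hochberg adjusted p under 0.05, while 1068 had an unadjusted p under 0.05, DESeq2 called 93 of 16335 (0.569%), limma-voom 0 and limma-voom with sample weights 9. None of the 10 genes was among the calls of any of these tools.

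Because STAT proteins bind palindromes with TTC and GAA half-sites, the 250 bases before the RefSeq start (GRCm38.p6) of each gene were searched for TTCNNNGAA, which reads the same on both strands, and for its stricter form TTCCNGGAA, each match of which is also a match of TTCNNNGAA. Windows were found for 9 of the 10 genes, 15 windows in all with alternative starts. The feedback gene Socs3 held TTCNNNGAA, in 1 copy, and the other 8 genes held neither form. Over 32851 windows of the same length, 7.02% held TTCNNNGAA and 0.91% held TTCCNGGAA. The windows of Socs3, with its match in capitals, and of Stat3, a gene of the pathway without a match, are shown to let them be compared. The Socs3 window is on the minus strand at chr11:117969452-117969616, cut back by the bases nearest to the start that an annotated exon covers, and the Stat3 window is on the minus strand at chr11:100939541-100939790.
Socs3: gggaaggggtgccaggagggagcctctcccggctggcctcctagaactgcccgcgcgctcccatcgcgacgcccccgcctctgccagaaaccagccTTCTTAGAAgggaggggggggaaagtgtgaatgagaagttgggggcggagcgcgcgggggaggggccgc
Stat3: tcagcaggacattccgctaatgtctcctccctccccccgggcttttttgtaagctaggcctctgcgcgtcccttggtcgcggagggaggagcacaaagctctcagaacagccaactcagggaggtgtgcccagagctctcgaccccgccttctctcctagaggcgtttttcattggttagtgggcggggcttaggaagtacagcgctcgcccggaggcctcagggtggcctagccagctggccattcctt
The Socs3 match, TTCTTAGAA, covers bases 154 to 146 before the RefSeq start. The protein-coding Socs3 transcript of GENCODE M21 starts 180 bases downstream of the RefSeq start, so the bases just before that transcript were not in the window searched. A match in these letters is a description of the sequence, and binding was not measured.

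Levels of different genes were compared per length, as RPKM (CPM divided by the kilobases of merged exon). Over all 6 libraries Lifr, the leukaemia inhibitory factor receptor, had the highest mean at 87.7 RPKM, followed by Il6st at 42.5, Stat3 at 31.9 and Cntfr, the receptor of ciliary neurotrophic factor, at 21.3. Socs3 followed at 2.58 RPKM, Osmr at 1.86, Il6ra at 0.631 and the cytokines Il6, Lif and Osm at 0.0868, 0.0770 and 0.0574. Within each group every gene from Lifr to Cntfr lay apart from its neighbour in that order. Socs3 and Osmr overlapped in both groups, and the 3 cytokines overlapped each other. Osmr thus stood at 0.0369 ± 0.00595 of the Il6st level in controls and, in treated libraries, at 0.0494 ± 0.00690 (SD, n = 3), ratios that overlapped between the groups (exact permutation p = 0.2, two-sided).

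**Figure D1:**
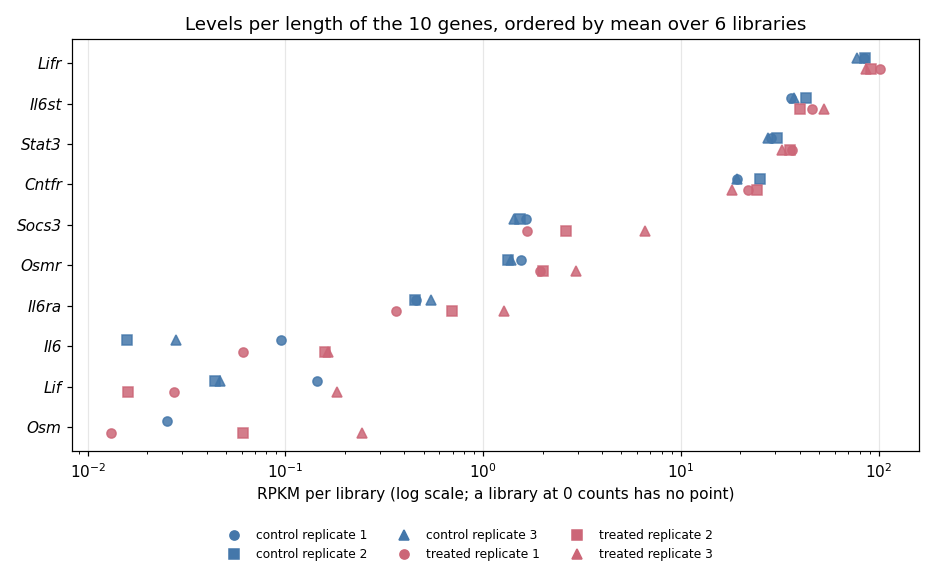
Level per length (RPKM, log scale) of each of the 10 genes, with 1 point per library, controls in blue above treated libraries in red, and none for a library at 0 counts. Lifr, Il6st, Stat3 and Cntfr lie between 18.2 and 101.6 RPKM, whereas the 3 cytokines reach at most 0.245 RPKM.

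The cytokine Il6 (ENSMUSG00000025746, chromosome 5, 30013114 to 30019981, plus strand, GRCm38) had 4, 1 and 1 counts in control replicates 1, 2 and 3 and 5, 11 and 5 counts in treated replicates 1, 2 and 3. The highest counts thus lay in treated libraries, but relative to library size control replicate 1, at 0.229 CPM, lay above treated replicate 1, at 0.149 CPM. The summed counts of 6 and 21 gave, after scaling to library size, a treated to control ratio of 2.72 and a 95% exact binomial interval of 1.06 to 8.24 that covers counting error only. It was 5.72 without control replicate 1 and 1.81 without control replicate 2. Lif (chromosome 11, 4257557 to 4272514, plus strand) had 11, 5 and 3 counts in controls and 4, 2 and 10 in treated libraries, a ratio of 0.655 with an interval of 0.315 to 1.34. Its controls and treated libraries overlapped, with the lowest levels in treated replicates 1 and 2, and its ratio was 1.09 without control replicate 1 and 0.295 without treated replicate 3. Osm, which encodes oncostatin M, a cytokine made mainly by blood cells and macrophages (chromosome 11, 4236420 to 4241026, plus strand), had 1, 0 and 0 counts in controls and 1, 4 and 7 in treated libraries, a ratio of 9.33 with an interval of 1.38 to 399.0. The Osm ratio became 4.67 if treated replicate 3 was left out, 15.5 for treated replicate 1 and 5.17 for control replicate 2, and the single control count was in control replicate 1. Of its 12 treated counts 7 were in treated replicate 3, the library with the highest macrophage and neutrophil marker sums, and their part in the count was not tested. At these depths 3 counts correspond to 0.0893 to 0.239 CPM, and none of the 3 cytokine genes passed the filter on low counts (at least about 10 counts in 3 libraries), so they were not tested in the edgeR fit.

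Il6ra, the interleukin-6 binding chain (ENSMUSG00000027947, chromosome 3, 89864059 to 89913196, minus strand), had 3.96, 3.92 and 4.73 CPM in controls and 3.12, 5.99 and 10.98 CPM in treated replicates 1, 2 and 3. The treated libraries lay on both sides of the controls, with treated replicate 1 the lowest of all 6. The groups differed by 0.66 ± 0.43 (SE) on the log2 scale (edgeR adjusted p = 0.754), or by 0.12 when treated replicate 3 was left out. The exons of Il6ra share 242 bases with those of the antisense gene Gm42809, and reads of the shared bases cannot be assigned if the counting ignored strand. Macrophages are a known source of this transcript, and the macrophage sum in treated replicate 3 was 299.6 CPM. Its part in the Il6ra value was not tested.

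Cntfr (ENSMUSG00000028444, chromosome 4, 41657498 to 41697089, minus strand), a receptor of sensory and motor neurons that is held to the membrane by a lipid anchor, had 53.3, 69.6 and 53.2 CPM in controls. Treated libraries had 60.8, 67.7 and 50.5 CPM, so the groups overlapped throughout. Its log2 fold change was 0.02 ± 0.15 (SE; edgeR adjusted p = 0.977), and its sign turned when control replicate 1, control replicate 3 or treated replicate 2 was left out (-0.043, -0.044 and -0.086). Of the 7 tested genes of the set, it had the value nearest to 0.

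The shared chain Il6st (ENSMUSG00000021756, chromosome 13, 112464070 to 112510086, plus strand) had 401.1, 475.7 and 416.3 CPM in controls and 509.6, 442.7 and 585.7 CPM in treated libraries. Treated replicate 2 lay below control replicate 2, so the groups overlapped. For Il6st the log2 fold change was 0.25 ± 0.13 (SE; edgeR adjusted p = 0.742), and it was 0.14 without treated replicate 3. Lifr (ENSMUSG00000054263, chromosome 15, 7090614 to 7197489, plus strand) had 905.9, 917.6 and 834.4 CPM in controls and 1095, 989.6 and 929.2 CPM in treated libraries. All treated libraries lay above all controls, treated replicate 3 by the least. The log2 fold change of Lifr was 0.18 ± 0.11 (SE; edgeR adjusted p = 0.745), and without treated replicate 1 it was 0.10.

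Osmr (ENSMUSG00000022146, chromosome 15, 6813577 to 6874969, minus strand), the oncostatin M receptor chain, had 18.8, 16.1 and 16.7 CPM in controls and 23.4, 24.3 and 35.7 CPM in treated libraries. Every treated library lay above every control, and treated replicates 1 and 2 were close to each other. Its mean went from 17.2 ± 1.41 to 27.8 ± 6.86 CPM (SD, n = 3). By p, its log2 fold change of 0.69 ± 0.18 (SE) ranked 144 of the 16019 genes (edgeR adjusted p = 0.621). The exact permutation p was 0.1 (two-sided), the smallest that 3 against 3 libraries allow. With treated replicate 3 left out Osmr was at 0.47, and over all alternatives the lowest adjusted p was 0.0996 (DESeq2) and the highest 0.995. The ratio of Lifr to Osmr per length did not overlap between the groups either, at 54.2, 64.0 and 56.2 in controls and 52.5, 45.8 and 29.2 in treated libraries (exact permutation p = 0.1).

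The higher Osmr levels stood beside higher sums of jugular markers in the treated libraries, whose groups did not overlap either. Of the 5 jugular markers, 4 had all treated libraries above all controls, as had 7.07% of all tested genes. Treated replicate 1 had a jugular sum of 421.2 CPM and an Osmr level of 23.4 CPM, and treated replicate 2 had 255.1 and 24.3 CPM. Markers of fibroblasts, another known source of Osmr, summed to 657.5 to 1136 CPM in controls and to 475.7, 738.9 and 2138 CPM in treated libraries. The lowest fibroblast sum of all was in treated replicate 1 and the highest in treated replicate 3. The part of these cell types in the Osmr values was not tested.

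**Figure D2:**
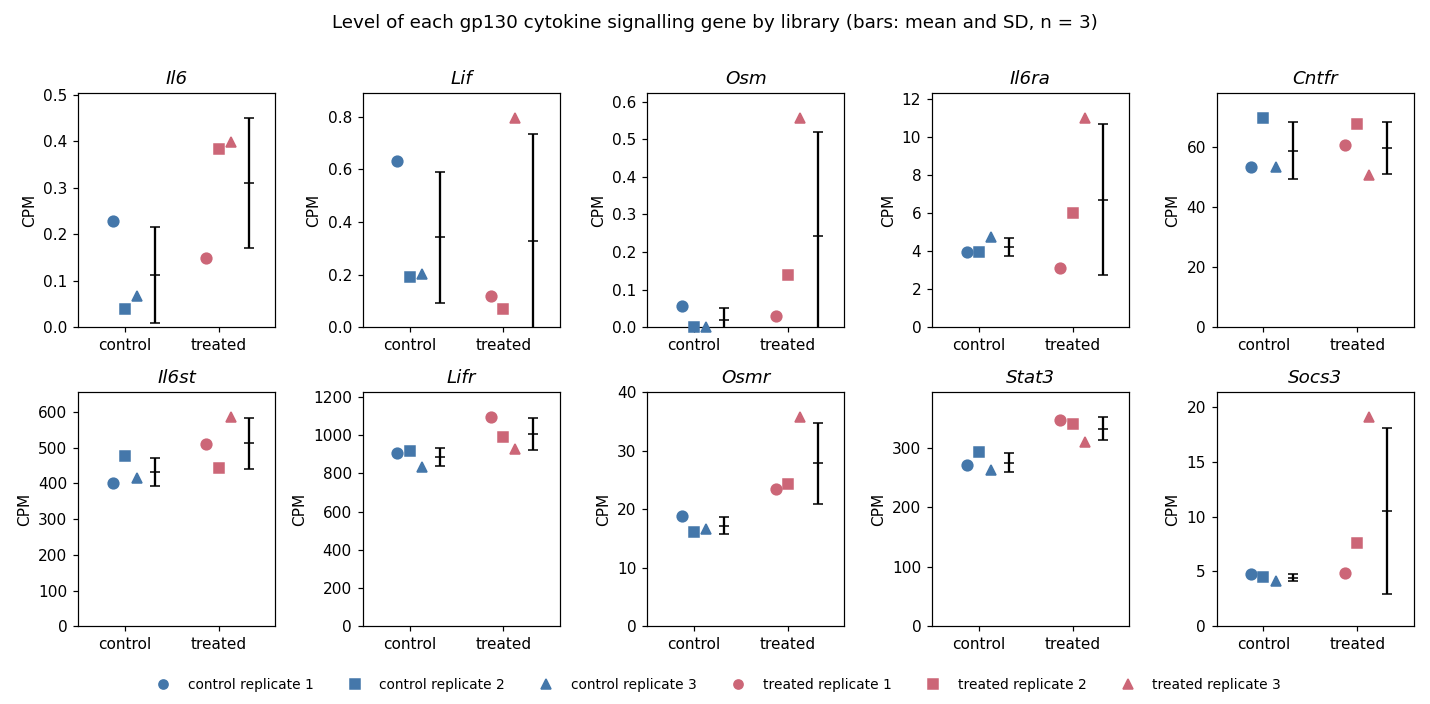
Level in CPM of each of the 10 genes in each library, with the mean and SD of each group beside the points (lower error bars are cut at 0). Osmr and Stat3 show 3 treated points clear of the controls, while the Socs3 mean is carried mainly by treated replicate 3 at 19.1 CPM.

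Stat3 (ENSMUSG00000004040, chromosome 11, 100885098 to 100939540, minus strand) had 270.9, 292.7 and 262.5 CPM in controls and 346.3, 341.0 and 310.6 CPM in treated libraries. All treated libraries lay above all controls, and unlike Osmr and Socs3 the lowest treated value was in treated replicate 3. The mean went from 275.4 ± 15.6 to 332.7 ± 19.3 CPM (SD, n = 3), a log2 fold change of 0.27 ± 0.09 (SE; edgeR adjusted p = 0.696, exact permutation p = 0.1). Without treated replicate 3 it was 0.32. The exons of Stat3 share 72 bases with those of Stat5a on the other strand, and whether the counting used strand is not stated in the labels. Stat5a had 103 to 243 counts per library against 3885 to 11639 for Stat3.

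Socs3 (ENSMUSG00000053113, chromosome 11, 117966079 to 117970047, minus strand) had 4.76, 4.46 and 4.12 CPM in controls, from 83, 116 and 61 counts. Treated libraries had 4.82, 7.59 and 19.1 CPM, from 162, 218 and 240 counts. All treated libraries lay above all controls, but treated replicate 1 exceeded the highest control by little, and treated replicate 3 was far above the rest. Socs3 was at a log2 fold change of 1.22 ± 0.48 (SE; edgeR adjusted p = 0.737, exact permutation p = 0.1), and at 0.48 ± 0.25 when treated replicate 3 was left out. Socs3 relative to Stat3, per length, was 0.0579, 0.0502 and 0.0517 in controls and 0.0459, 0.0734 and 0.203 in treated libraries, so treated replicate 1 had the lowest ratio of all 6 (exact permutation p = 0.4).

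The order of the treated libraries by Socs3 was that of their macrophage, fat cell and neutrophil marker sums. It was also that of their fibroblast, Schwann cell, satellite glia, endothelial and lymphocyte marker sums, and the reverse of their depth, so it was not particular to a cell type. The 10 neutrophil markers summed to 1.69 to 14.3 CPM in controls and to 2.26, 14.9 and 56.1 CPM in treated replicates 1, 2 and 3, with Ly6g, Cxcr2 and Retnlg at 0 in at least 1 library. The part of these cells in the Socs3 values was not tested. Stat3 did not follow these sums, and was highest in treated replicate 1, the treated library with the lowest macrophage, fat cell and neutrophil sums.

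**Figure D3:**
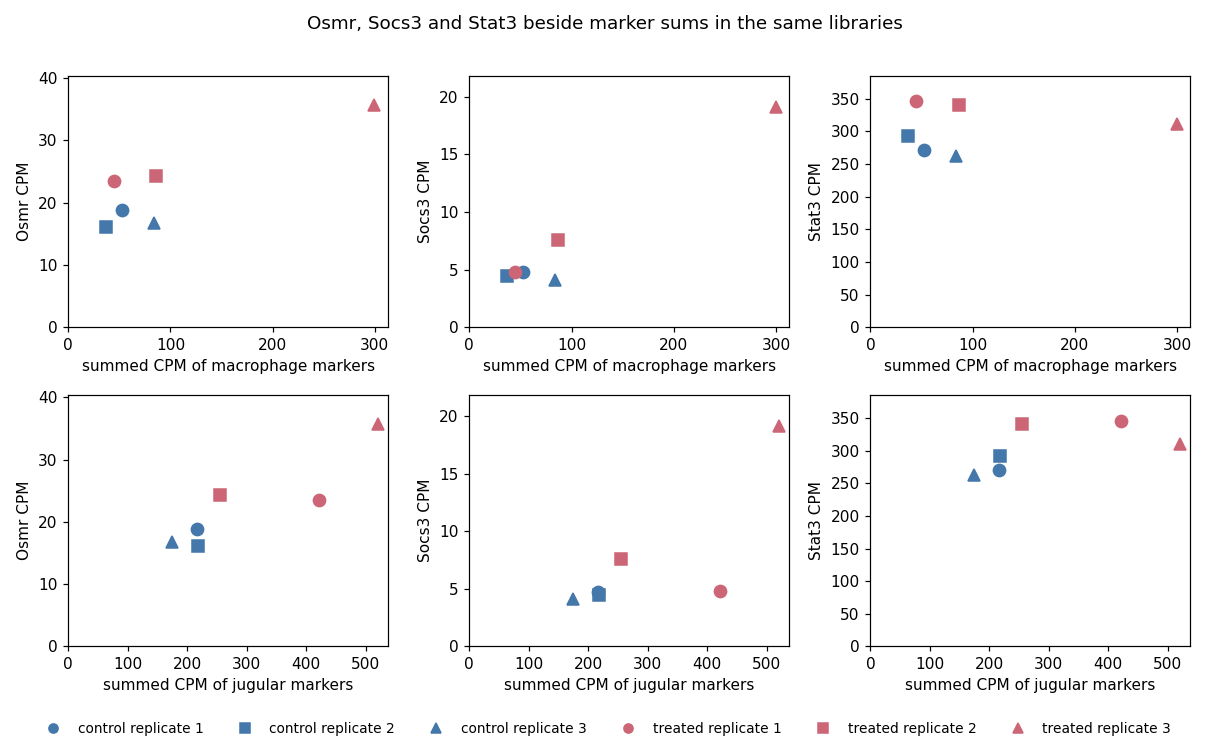
Levels of Osmr, Socs3 and Stat3 (CPM, vertical axes) against the summed CPM of macrophage markers (upper row) and jugular markers (lower row), with 1 point per library. Treated replicate 3 is the highest library in both marker sums and in Osmr and Socs3, and the lowest treated library in Stat3.

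Of the 10 genes 7 were tested, and the log2 fold changes of these 7 were all above 0, as were those of 52.8% of all tested genes. Their median was 0.27 (0.23 if treated replicate 3 is left out), beside 0.02 over all tested genes. Osmr, Stat3 and Socs3 had an unadjusted edgeR p under 0.05 with higher treated levels, a rule that took 4% of all tested genes, while 0 of the 7 had one with lower levels (2.67% of all tested genes; 6.67% in either direction). With treated replicate 3 left out Osmr, Stat3 and Lifr had an unadjusted p under 0.05, all with higher treated levels, as had 3.63% of all tested genes (7.94% in either direction). Osmr, Stat3, Socs3 and Lifr had all treated libraries above all controls, as had 7.07% of all tested genes. Treated replicate 1 and treated replicate 2 each lay above all controls for 5 of the 7, against 24.2% and 27.3% of all tested genes. Treated replicate 3 was the highest library for 4 of the 7 (34.4% of all tested genes) and treated replicate 1 for 2 (12.7%). These counts describe a set that was chosen by name with earlier results of these data known, and the genes share the same 6 libraries. Over the 6 libraries the log2 levels of Osmr and Socs3 had a Pearson correlation of 0.924, those of Lifr and Stat3 one of 0.910 and those of Stat3 and Socs3 one of 0.348. With treated replicate 3 left out (n = 5) these correlations were 0.763, 0.927 and 0.667.

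Among 9968 genes with a mean of at least 10 CPM, the levels most like those of Osmr over the 6 libraries were those of Gtdc1, Zfp146 and Etv6, with Pearson correlations of 0.998, 0.996 and 0.992 on the log2 scale. For Stat3 they were Cntnap4, Slc24a2 and Usp35, at 0.991, 0.987 and 0.982. The genes most like Socs3 were Adipor2, Mkrn2 and the immediate early gene Egr1, at 0.996, 0.995 and 0.995. Correlations over 0.9 were found for 237 genes with Osmr, 77 with Stat3 and 454 with Socs3, so such values were not particular to the genes named. A high correlation does not give the size of a change. The log2 fold changes of Gtdc1, Zfp146 and Etv6 were 0.13, 0.27 and 0.49.

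The listed genes for other ligands were also scarce, apart from Cntf. They include Il31, whose product binds the receptor that pairs Il31ra with Osmr. Cntf, ciliary neurotrophic factor, is stored in myelinating Schwann cells, and had 6.65, 5.38 and 8.72 CPM in controls and 6.64, 12.6 and 12.5 CPM in treated libraries. Treated replicate 1 lay within the controls and the other treated libraries above them, and the log2 fold change was 0.61 ± 0.30 (SE; edgeR adjusted p = 0.742). The 7 Schwann cell markers summed to 870.4, 1392 and 888.8 CPM in controls and to 1068, 1635 and 1643 CPM in treated libraries, and their part in the Cntf value was not tested.

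Clcf1, which encodes a ligand of Cntfr, had 4, 8 and 4 counts in controls and 36, 14 and 19 in treated libraries. All treated levels, at 1.07, 0.488 and 1.51 CPM, lay above all controls, at 0.229 to 0.308 CPM. Its log2 fold change was 1.86 ± 0.62 (SE; edgeR adjusted p = 0.685) and was 1.51 without treated replicate 3. Clcf1 passed the filter on low counts through its treated libraries alone. Ctf1, cardiotrophin-1, had 10, 35 and 6 counts in controls and 14, 12 and 8 in treated libraries, and its log2 fold change of -0.72 ± 0.62 was -0.04 without control replicate 2. The other 6 ligand genes of the list of 9 did not pass the filter, among them Il11, with 0 to 8 counts per library, and Ebi3, with 31 counts in treated replicate 3 and 2 to 6 elsewhere.

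Of 6 genes for further receptors and for proteins that cleave or sort receptor chains, 5 were tested. All 5 had log2 fold changes above 0, as had 52.8% of all tested genes. Their median of 0.24 became 0.08 when treated replicate 3 was left out. Then 4 of 5 were above 0 (50.7% of all tested genes were). Il31ra, which pairs with Osmr in the interleukin-31 receptor, had 4.53, 3.54 and 1.49 CPM in controls and 8.39, 3.52 and 12.4 CPM in treated libraries. Treated replicate 2 lay below control replicates 1 and 2, so the groups overlapped, unlike those of Osmr. The log2 fold change of Il31ra was 1.33 ± 0.54 (SE; edgeR adjusted p = 0.737), and 0.89 without treated replicate 3. The treated libraries, only 3 in number, stood in the same order by Il31ra as by their jugular sums, and the part of jugular neurons in the Il31ra values was not tested. Sorl1, a sorting receptor, was at 0.24 ± 0.12 and the protease Adam10, which can release Il6ra from the cell surface, at 0.19 ± 0.13, both with overlapping groups. Il27ra, the gene of this list that was not tested, had 50 counts in treated replicate 3 and 1 to 11 elsewhere.

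Among 12 kinases, STAT factors and adaptors, 8 log2 fold changes were above 0 and 4 below, and the median was 0.14 whether or not treated replicate 3 was included. Jak1, the kinase on which gp130 signalling mainly depends, had the highest mean CPM of the list. Its levels were 1051, 978.0 and 945.9 CPM in controls and 853.5, 777.7 and 376.9 CPM in treated libraries, so it lay below all controls in every treated library, as did 7.63% of all tested genes. For Jak1 the log2 fold change was -0.57 ± 0.28 (SE; edgeR adjusted p = 0.742), and without treated replicate 3 it was -0.28. Relative to Il6st, per length, Jak1 stood at 3.56 ± 0.437 in controls and at 2.09 ± 0.953 in treated libraries (SD, n = 3), without overlap (exact permutation p = 0.1). Nodose markers were lower in the same libraries, with 5 of 6 below all controls in every treated library. Sympathetic neuron markers also summed lower, to 291.8, 275.9 and 246.7 CPM in controls and 200.4, 184.8 and 85.03 CPM in treated libraries. Their sums ordered the 6 libraries as Jak1 did, which the nodose sums did not. Sums of pan-neuronal markers overlapped between the groups and were lowest in treated replicate 3. The part of these neurons in the Jak1 value was not tested.

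Jak3, a kinase of lymphocyte cytokine receptors, was at a log2 fold change of 0.63 ± 0.25 (SE; edgeR adjusted p = 0.737), with treated replicate 1 (7.23 CPM) within the control range of 5.95 to 8.03 CPM. Lymphocyte markers summed to at most 2.47 CPM in any library, and Cd3e, Cd3d, Cd8a and Ms4a1 were at 0 in at least 1 library.

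The 13 other inhibitors of the pathway lay on both sides of 0: 6 log2 fold changes were above 0 and 7 below, and the median was -0.0049 (0.03 with treated replicate 3 left out). Ptpn1, a tyrosine phosphatase that acts on JAK kinases and on the insulin receptor, had 28.7, 35.4 and 33.2 CPM in controls and 40.2, 46.4 and 53.0 CPM in treated libraries. Its groups did not overlap, and its log2 fold change was 0.52 ± 0.13 (SE; edgeR adjusted p = 0.621). Cish, a STAT5-induced inhibitor of the Socs family, was at 0.47 ± 0.21 with overlapping groups. Socs2 had 42.2, 37.1 and 42.9 CPM in controls and 35.6, 34.7 and 23.1 CPM in treated libraries, which put it at -0.38 ± 0.17 with the treated libraries below the controls. Socs7, with the highest mean CPM of this list, was at 0.03 ± 0.09.

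**Figure D4:**
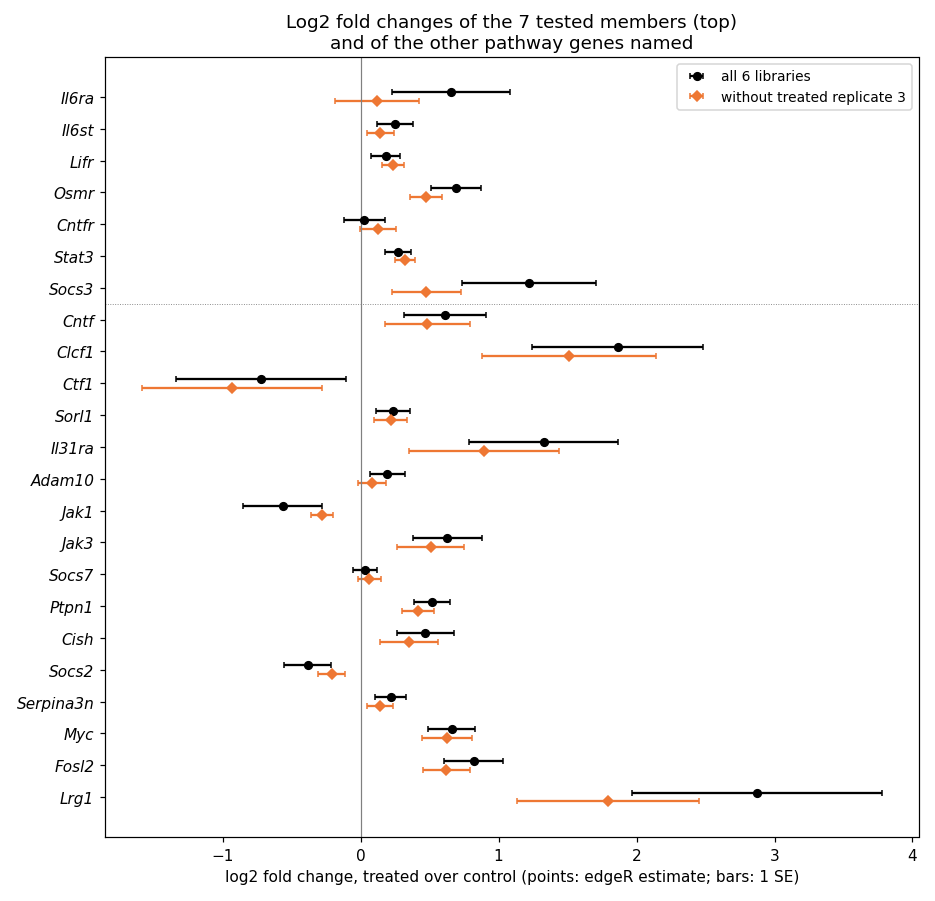
Log2 fold change of treated over control (edgeR estimate with 1 SE) for the 7 tested genes of the set above the dotted line and the other pathway genes named below it, with all 6 libraries in black and without treated replicate 3 in orange. Leaving out that library moves Socs3 from 1.22 to 0.48 and Il6ra from 0.66 to 0.12, while Stat3 goes from 0.27 to 0.32.

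The list of 24 genes that STAT3 is known to induce in various cells, chosen with earlier results of these data known, held 20 tested genes. The log2 fold changes of all 20 were above 0, as were those of 52.8% of all tested genes. The median of the 20 was 0.61, beside 0.02 over all tested genes. Of these genes 19 had their highest level in treated replicate 3, where that library was the highest for 34.4% of all tested genes. Without treated replicate 3, 16 of the 20 were positive (50.7% of all tested genes were) and the median was 0.15. A total of 5 had an unadjusted edgeR p under 0.05 and higher treated levels (4% of all tested genes), 7 had all treated libraries above all controls (7.07% of all tested genes), and 0 passed after adjustment.

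Myc, a growth-promoting transcription factor, had 5.56, 6.04 and 5.34 CPM in controls and 9.08, 8.36 and 9.39 CPM in treated libraries. Its log2 fold change was 0.66 ± 0.17 (SE; edgeR adjusted p = 0.621), and it was 0.62 without treated replicate 3. Fosl2, a subunit of the AP-1 transcription factor, had 12.2, 11.6 and 11.2 CPM in controls and 14.6, 21.4 and 26.1 CPM in treated libraries, at 0.82 ± 0.21 (SE; edgeR adjusted p = 0.621). Both genes had treated libraries clear of the controls, but only Fosl2 followed the order of the Socs3 values.

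Lrg1, a secreted glycoprotein of the acute phase response, had 29, 8 and 7 counts in controls and 117, 59 and 157 counts in treated libraries. These are 1.66, 0.308 and 0.473 CPM against 3.48, 2.06 and 12.5 CPM, so the groups did not overlap. At 2.87 ± 0.90 (SE) on the log2 scale it had an edgeR adjusted p of 0.685, while DESeq2 called it at an adjusted p of 0.0230. With treated replicate 3 left out it was at 1.79 (edgeR adjusted p = 0.556), and with control replicate 1 left out at 3.93 (edgeR adjusted p = 0.995). Serpina3n, a protease inhibitor, had 113.1, 117.6 and 101.6 CPM in controls and 130.2, 113.9 and 142.4 CPM in treated libraries. Treated replicate 2 lay within the controls, and its log2 fold change was 0.22 ± 0.11.

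**Figure D5:**
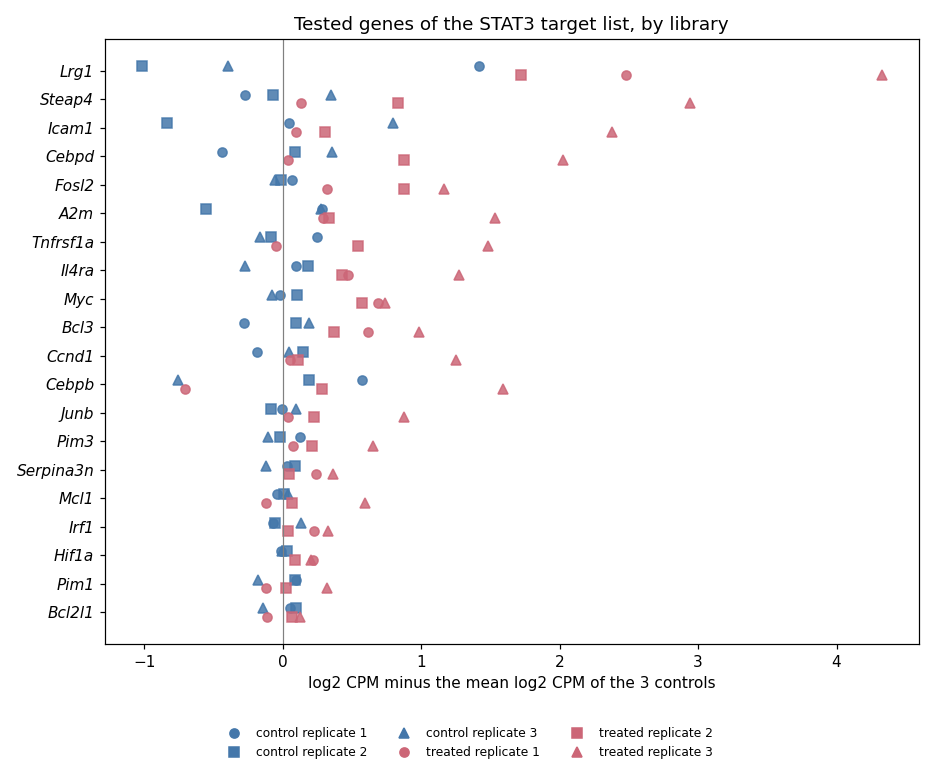
Log2 CPM of each of the 20 tested genes of the STAT3 target list in each library, relative to the mean of the 3 controls. Treated replicate 3 (triangles) is the highest library for 19 of the 20 (34.4% of all tested genes). Treated replicate 1 (circles) lies above all controls for 9 of them (24.2% of all tested genes). Treated replicate 2 (squares) does so for 13 (27.3% of all tested genes).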

How the data were processed

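The authors deposited 1 file of raw exonic read counts per gene for each of the 6 libraries. Per the labels, libraries were made with a strand-specific low-input kit from about 6 ng of RNA and read at 100 bp. Per the submitters' processing notes, bcl2fastq 2.20, STAR 2.7.7a, DESeq2, edgeR and build mm10 were used. Of the counting program, the annotation release and its use of strand, nothing is given in the sources used here. Members and lists were chosen with earlier results of these data known.

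Counts were fitted on the whole table with edgeR 4.0.16 (R 4.3.3): filterByExpr with a minimum count of 10, TMM scaling, and a robust quasi-likelihood F test of treated against control. P-values were adjusted by Benjamini-Hochberg over the 16019 genes that passed the filter, and 0.05 was the threshold. SE is the log2 fold change divided by the square root of F. CPM use TMM-adjusted library sizes, and RPKM the merged exons of GENCODE M21 (GRCm38), which matched 32663 of 32719 genes by identifier. Correlations used log2 CPM with a prior count of 2. Exact permutation tests are two-sided, on log2 values. Promoter windows are RefSeq's.

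Named genes are the 10 members and, from each other list, the tested gene with the highest mean CPM and the 3 with the smallest p. A gene that the rule names is not reported here. Genes named beside these by count (Il11, Ebi3, Il27ra) were chosen after their values were seen. Alternatives were other scalings, filters and tests (limma 3.58.1, DESeq2 1.42.0), a replicate block and each library left out. The procedure was tested on simulated counts.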

Additional observations from a re-analysis of the deposited data

How the results depend on the processing

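No gene was called by edgeR under the main settings, under other scalings, with the 5 CPM filter, without robust shrinkage or by limma-voom. Calls numbered 26 without the filter, 93 with DESeq2 and 9 by limma-voom with sample weights, and 0 to 9 with each library left out (9 without treated replicate 3 and 7 without treated replicate 1). None of the 7 tested members was called under any alternative run. Il6ra, Il6st, Lifr, Osmr, Stat3 and Socs3 kept a positive sign throughout. Cntfr turned to -0.043 without control replicate 1, -0.044 without control replicate 3 and -0.086 without treated replicate 2, within a range of -0.086 to 0.16 over the libraries left out. Socs7 turned to -0.020 without control replicate 3 and -0.032 without treated replicate 1, within a range of -0.032 to 0.064. With each library left out Socs3 ranged from 0.48 to 1.55, Il6ra from 0.12 to 0.99, Osmr from 0.47 to 0.78 and Stat3 from 0.23 to 0.32. Limma-voom put Socs3 at 0.72 and Il6ra at 0.27, and with sample weights at 0.57 and 0.26. Leaving libraries out of the ratios of summed cytokine counts and of the correlations between members was chosen after seeing the data.

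Same-numbered libraries deviated from their group means with correlations of 0.01, 0.56 and 0.49 for replicates 1, 2 and 3. Differently numbered libraries had correlations of -0.495 to 0.253, so the values for replicates 2 and 3 were the highest of all. Whether the numbers pair the samples is not stated in the titles. The main fit used no pairing, and the replicate block was an alternative. With the replicate number as a block 1 gene was called, and Socs3 was at 0.98, Osmr at 0.66 and Stat3 at 0.27. An unadjusted edgeR p under 0.05 was then found for 1510 genes, against 1068 in the main fit. The 3 cytokine genes are limited by depth, with at most 11 counts in any library.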
